A study of Homo sapiens with 10 samples.

Results

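Long intergenic noncoding RNAs (lincRNAs) are transcripts without a protein product whose genes lie between protein-coding genes. Here they are the rows that the deposited table annotates as lincRNA on chromosomes 1 to 22, with a mean over all 10 libraries of at least 1 FPKM (fragments per kilobase of transcript, scaled to library depth). The rule kept 300 of 7446 lincRNA rows on those chromosomes, among 58735 genes in all. RNA came from TPC-1, a papillary thyroid carcinoma cell line whose genotype in every group is the CCDC6-RET fusion. Adapted colonies BR8, BR10 and BR16 were each grown out of TPC-1 kept in 5 µM BLU667, a drug also called pralsetinib that blocks RET kinase activity, for more than 50 days by the sample labels and more than 5 months by the series design. Parental TPC-1 received 5 µM BLU667 for 24 h, and their controls the solvent DMSO for 24 h. Each group had 2 libraries, described as biological replicates. Each adapted group is 1 colony of the same line, so that its 2 libraries say nothing of how much another colony would vary.

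lincRNAs act in several known ways. Some build or tune nuclear bodies, some bind proteins or other RNAs, and some serve mainly as the primary transcript from which a small nucleolar RNA (snoRNA) or a microRNA (miRNA) is cut. The snoRNA hosts among them carry the symbol SNHG. Their snoRNAs guide chemical modification of ribosomal RNA, either ribose methylation (box C/D, symbols SNORD) or pseudouridylation (box H/ACA, symbols SNORA). In cancer cells many lincRNAs are known by their levels alone, and 178 of the 300 bear only a name taken from the sequenced clone, with 62 under a LINC number and 60 under other symbols.

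The mean level over 10 libraries, which chose the lincRNAs, had a median of 2.06 FPKM, against 7.38 FPKM for the protein-coding genes that reached the same level. Just inside the limit were AL158151.4 at 1.0006, LINC00923 at 1.01 and AP002957.1 at 1.02 FPKM, and just outside it MIR4458HG at 0.9976, GAPLINC at 0.997 and AC091057.4 at 0.9967 FPKM. Only 22 lincRNAs averaged at least 10 FPKM, and 147 stayed under 2. A group mean of at least 1 FPKM was reached in all 5 groups by 141 lincRNAs, in 4 groups by 71, in 3 by 54, in 2 by 30 and in a single group, BLU667, by 4. The mean over 10 libraries holds 8 with BLU667, most of them from the colonies, and 2 with DMSO. Presence in all colonies thus needed a lower level to be kept than presence in DMSO cells alone or at 24 h alone. No lincRNA that reached 1 FPKM in DMSO cells alone was kept. All 300 passed the filter of the test (at least 1 FPKM in 2 libraries). Recovered read counts summed over the 10 libraries had a median of 533 per lincRNA and were as low as 53, so counting error is large for the weakest.

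The table's total for the 300 lincRNAs was lowest in DMSO cells. Their FPKM summed to 1510 and 1572 in BR8, 1216 and 1151 in BR10, 1264 and 1287 in BR16 and 1315 and 1315 in BLU667-treated cells, against 977 and 980 in DMSO cells. No library with BLU667 overlapped the DMSO pair. As a share of the reads in genes, the lincRNAs took 0.364% and 0.386% in BR8, 0.334% and 0.298% in BR10, 0.314% and 0.328% in BR16 and 0.364% and 0.362% in BLU667-treated cells, against 0.264% and 0.244% in DMSO cells. These sums lean towards the colonies by the weighting just described. They lean towards the 24 h pair only for lincRNAs that it shares with the colonies. The highest group mean fell in BLU667 for 105 lincRNAs, in BR8 for 77, in DMSO for 48 and in BR10 and BR16 for 35 each.

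**Figure D1:**
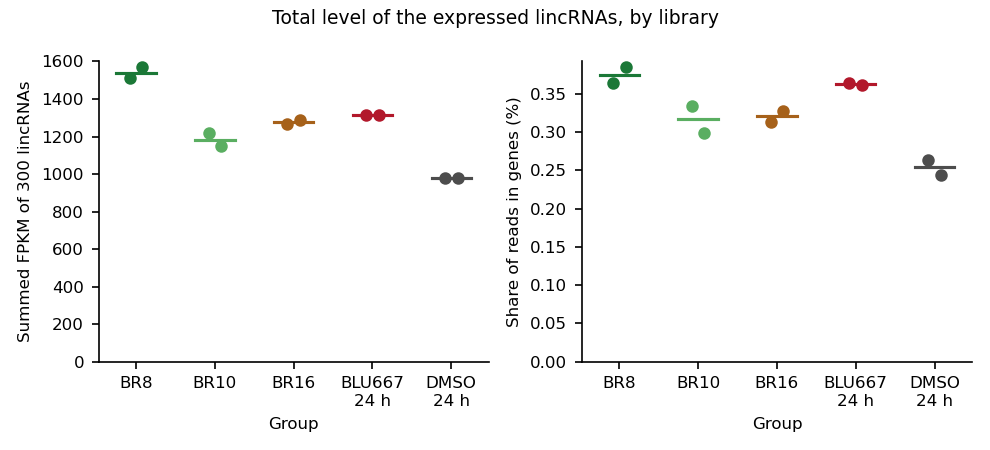
Summed FPKM (left) and share of the reads in genes (right, percent) of the 300 expressed lincRNAs, on linear axes from 0. Points are libraries and bars are means of 2. The DMSO libraries, at 977 and 980 FPKM, lie below all 8 libraries with BLU667.

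Libraries held 15243703 to 21904245 reads in genes, with 3.23% to 6.49% of them mitochondrial. The non-directional kit gave no strand, so reads of a lincRNA cannot be told from those of a gene that overlaps it, which concerns the 71 lincRNAs that share exon sequence with another gene. The cell type label was checked against markers: PAX8 stood at 35.3 FPKM or more in every library and FOXE1 and HHEX at 1.14 or more, whereas TG, TSHR and SLC5A5, products of a differentiated thyroid cell, and NKX2-1, a thyroid transcription factor, reached 0.23 FPKM at most. Immune and endothelial markers reached 0.29 FPKM at most. Of the epithelial markers, KRT8 and KRT18 were present in every library, at 9.36 FPKM or more, while KRT19, EPCAM and CDH1 reached 0.316 at most. Of 6 fibroblast markers, COL1A2 and DCN were at 0 throughout, and others moved with the groups: PDGFRB had 0.108 to 1.53 FPKM in the colonies and 11.8 and 15.4 in BLU667-treated cells, against 2.8 and 2.71 in DMSO cells. PDPN had 0 to 2.21 FPKM in the colonies and 11.5 and 10.5 in BLU667-treated cells, against 24.6 and 26.4 in DMSO cells, LUM exceeded 1 FPKM in BR8 alone, at 4.61 and 6.43, and COL1A1 stayed at 2.23 or less. The part of these markers in the results was not tested. Between the 2 DMSO libraries, differences followed the GC content of transcripts (Spearman correlation -0.61 across 13923 genes and -0.43 across the 300 lincRNAs, as a description). Over all 13923 genes, changes from DMSO had Spearman correlations with GC content of -0.28 in BR8, -0.23 in BR10 and 0.27 in BR16. Across the 300 lincRNAs these were -0.17, -0.18 and 0.04. The part of GC content in the results below was tested only by removing that trend, which turned no direction among the 96 results for named lincRNAs. Those 96 hold no difference among colonies. With the trend removed, 130 lincRNAs differed among the colonies by the F test, against 143 in the main fit.

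Among the 4 SNHG genes and the 2 other lincRNAs that hold a snoRNA, SNHG18, EPB41L4A-AS1 and SNHG8 rose after 24 h of BLU667, SNHG4 and LINC02001 fell, and SNHG19 was not called. Against DMSO the adapted colonies had SNHG18, EPB41L4A-AS1 and SNHG8 higher and SNHG4 lower, each differing also from the 24 h treatment in the direction of DMSO. With the 3 colony means as replicates, those colony calls were lost (adjusted p = 0.239 for SNHG18, 0.145 for EPB41L4A-AS1, 0.51 for SNHG8 and 0.0502 for SNHG4), as were the differences from the 24 h treatment of SNHG8 (adjusted p = 0.352) and SNHG4 (0.0684). The colony calls of SNHG8 and EPB41L4A-AS1 against DMSO were also lost without DMSO replicate 1 (adjusted p = 0.0616 and 0.11). Without the colony BR16, the call of SNHG8 was lost as well (adjusted p = 0.0819). SNHG18, the host of the box C/D snoRNA SNORD123 (chromosome 5, 9546200 to 9550609, plus strand), had 5.07 and 5.14 FPKM in BR8, 8.24 and 9.92 in BR10, 10.3 and 9.16 in BR16 and 15.3 and 15.6 in BLU667-treated cells, against 5.61 and 4.63 in DMSO cells. The BR8 libraries lay within the DMSO range, and BR10, BR16 and BLU667 all lay above it. By limma, the change from DMSO on the log2(FPKM + 1) scale, the scale of every change below (± its standard error), was 1.43 ± 0.11, adjusted p = 1.39e-05 for BLU667 and 0.51 ± 0.09, adjusted p = 0.00216 for the mean of the colonies. EPB41L4A-AS1, which holds the box H/ACA snoRNA SNORA13, had 6.12 and 5.18 FPKM in BR8, 7.05 and 6.5 in BR10, 5.58 and 6.4 in BR16 and 13.5 and 16.7 in BLU667-treated cells, against 3.89 and 4.78 in DMSO cells. Both BLU667 values stood well above all others, and the colonies lay just above the DMSO pair. The difference between BLU667 and DMSO was 1.60 ± 0.13, adjusted p = 2.07e-05, and this gene overlaps exons of EPB41L4A, whose own change missed the threshold (0.00, adjusted p = 0.998).

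SNHG8, host of SNORA24 and the most abundant of the 6, had 66.6 and 66.4 FPKM in BR8, 36.7 and 38.1 in BR10, 61.6 and 63.7 in BR16 and 65.1 and 72.8 in BLU667-treated cells, against 41.1 and 46.8 in DMSO cells. BR10 lay below the DMSO pair while BR8, BR16 and BLU667 lay above it. After 24 h of BLU667 it was higher than in DMSO by 0.64 ± 0.09, adjusted p = 0.000382, and the colonies differed among themselves (F test, adjusted p = 0.000451). SNHG4, which spans SNORA74A and SNORA74D and overlaps exons of MATR3 and SIL1, had 8.99 and 9.02 FPKM in BR8, 9.43 and 9.32 in BR10, 9.22 and 8.68 in BR16 and 6.69 and 6.79 in BLU667-treated cells, against 12.6 and 14.2 in DMSO cells. Every library with BLU667 was below both DMSO libraries, and the lowest pair was the 24 h treatment. The log2 change was -0.89 ± 0.08, adjusted p = 2.51e-05 at 24 h and -0.51 ± 0.06, adjusted p = 0.000317 in the colonies. SNHG19, host of SNORD60, ran from 13.6 FPKM in BR10 to 29.5 FPKM in a DMSO library whose replicate held 16.1, so that the DMSO libraries overlapped BR8, BR16 and BLU667 (adapted colonies against DMSO -0.46 ± 0.20, adjusted p = 0.0885). Without the lower DMSO library, replicate 2, the colonies were called lower (-0.88, adjusted p = 0.00288). LINC02001, which holds SNORD7, had 0.718 and 1.03 FPKM in BLU667-treated cells, against 2.15 and 2.23 in DMSO cells, a log2 change of -0.77 ± 0.26, adjusted p = 0.0301 that was no longer called when any of these 4 libraries was left out.

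**Figure D2:**
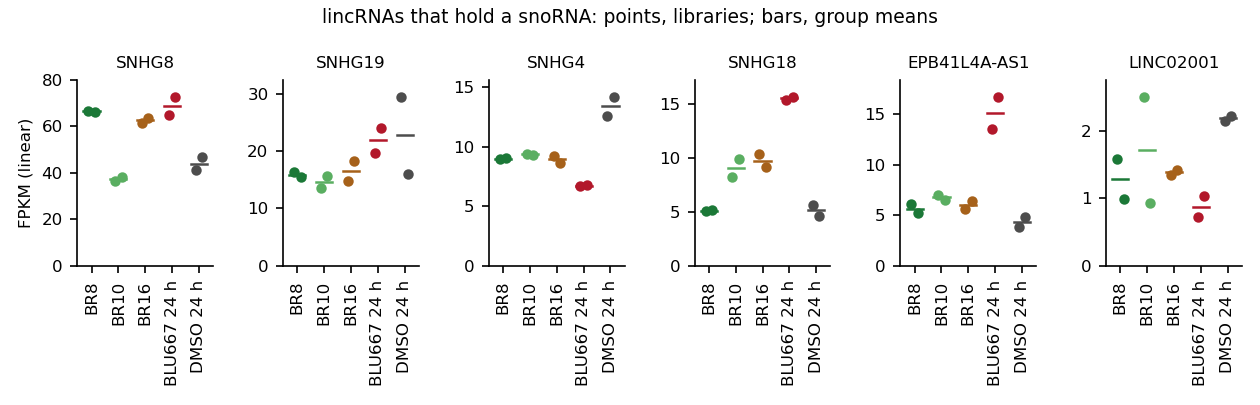
FPKM (linear axes from 0) of the 6 lincRNAs that hold a snoRNA, by group, with points for libraries and bars for means of 2. BLU667 for 24 h stands highest for SNHG18 and EPB41L4A-AS1 and lowest for SNHG4, and the DMSO libraries of SNHG19 lie far apart.

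Many snoRNA hosts start with an uninterrupted run of pyrimidines, a feature shared with ribosomal protein genes. Promoter windows from 250 bases before to 50 after the RefSeq start (GRCh38.p14) were found by symbol for 75 of the 300 lincRNAs, and 51 of those starts lay within 100 bases of the start in the table. Of these, 5 had a run of at least 5 C or T letters from the first base, against 5.17% of all 35116 RefSeq windows, and 3 of the 5 were SNHG genes. The 3 are shown because their levels part ways under the drug, with the run in capitals and each window read 5′ to 3′ on the gene's strand. They lie at chr5:9545950-9546249 (SNHG18, plus), chr5:139273851-139274150 (SNHG4, plus) and chr16:2155309-2155608 (SNHG19, minus).
SNHG18: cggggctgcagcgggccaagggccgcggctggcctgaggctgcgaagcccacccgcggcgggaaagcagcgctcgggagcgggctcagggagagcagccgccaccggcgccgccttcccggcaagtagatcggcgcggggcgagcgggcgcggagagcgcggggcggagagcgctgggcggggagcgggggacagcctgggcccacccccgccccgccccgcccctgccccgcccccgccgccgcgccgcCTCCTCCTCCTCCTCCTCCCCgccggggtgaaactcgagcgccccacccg
SNHG4: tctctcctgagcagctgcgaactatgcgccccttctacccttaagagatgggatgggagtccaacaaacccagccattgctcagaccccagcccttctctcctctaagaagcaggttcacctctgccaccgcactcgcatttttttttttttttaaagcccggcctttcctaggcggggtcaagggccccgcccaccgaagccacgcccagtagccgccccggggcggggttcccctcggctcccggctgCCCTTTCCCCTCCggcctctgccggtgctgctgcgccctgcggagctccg
SNHG19: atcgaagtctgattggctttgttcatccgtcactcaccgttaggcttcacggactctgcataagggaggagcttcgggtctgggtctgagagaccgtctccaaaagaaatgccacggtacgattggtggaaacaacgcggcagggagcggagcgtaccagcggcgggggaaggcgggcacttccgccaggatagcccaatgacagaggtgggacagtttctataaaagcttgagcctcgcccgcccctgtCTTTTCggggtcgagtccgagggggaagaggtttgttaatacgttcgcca
The runs are 21, 13 and 6 letters long. The gene with the longest run rose, SNHG4 fell and SNHG19 was not called, so the run goes with no single direction here.

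Other snoRNA hosts in the table give the setting. GAS5 (annotated as a processed transcript, and so outside the 300) had 90.8 and 100.4 FPKM in BR8, 98.1 and 91.3 in BR10, 86.2 and 89.5 in BR16 and 92.1 and 121 in BLU667-treated cells, against 66 and 65.5 in DMSO cells, higher with BLU667 than DMSO by 0.68 ± 0.13, adjusted p = 0.00185. ZFAS1 was also higher at 24 h (0.74 ± 0.12, adjusted p = 0.00105) and DANCR was not called (-0.01 ± 0.10, adjusted p = 0.944). Of 36 tested protein-coding snoRNA hosts, 12 rose, 10 fell and 14 were not called after 24 h, with a median of 0.08 on the log2 scale against -0.01 for all genes. These shares lie near those of all tested genes, of which 29% were higher and 31.2% lower. Those that fell were ribosome-assembly and other genes such as NCL (nucleolin, -1.75 ± 0.09, adjusted p = 1.91e-06) and NOP56, a core protein of box C/D particles (-1.72 ± 0.09, adjusted p = 2.11e-06), and those that rose included RPS20 (0.54 ± 0.10, adjusted p = 0.0021) and RPL5 (0.41 ± 0.08, adjusted p = 0.00176), ribosomal proteins. In the colonies against DMSO 5 rose, 11 fell and 20 were not called, where 22.9% of all tested genes were higher and 26.3% lower. Mature snoRNAs were not measured.

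After 24 h of BLU667, 126 of the 300 lincRNAs were higher than in DMSO cells and 61 were lower, where 29% of all 13927 tested genes were higher and 31.2% lower. The median lincRNA changed by 0.27 on the log2(FPKM + 1) scale, against -0.01 over all tested genes. Past an absolute log2 change of 1 there were 56 higher and 28 lower, with 8.85% and 11.2% of all genes. The rule favours lincRNAs present in the colonies, some of them shared with the 24 h pair. The counts were therefore repeated on the 288 lincRNAs whose mean of the BLU667 and DMSO group means was at least 1 FPKM: 127 were higher and 57 lower. Among those that share no exon with another gene, 93 of 229 were higher and 48 lower. On simulated libraries at these depths, 30 of 100 genes changed 2-fold and 77 of 100 genes changed 4-fold were recovered over 13032 genes. Far fewer genes were changed there than were called here, and the spread between libraries was a set value. These rates therefore do not measure recovery in this comparison. An uncalled lincRNA may still have changed.

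**Figure D3:**
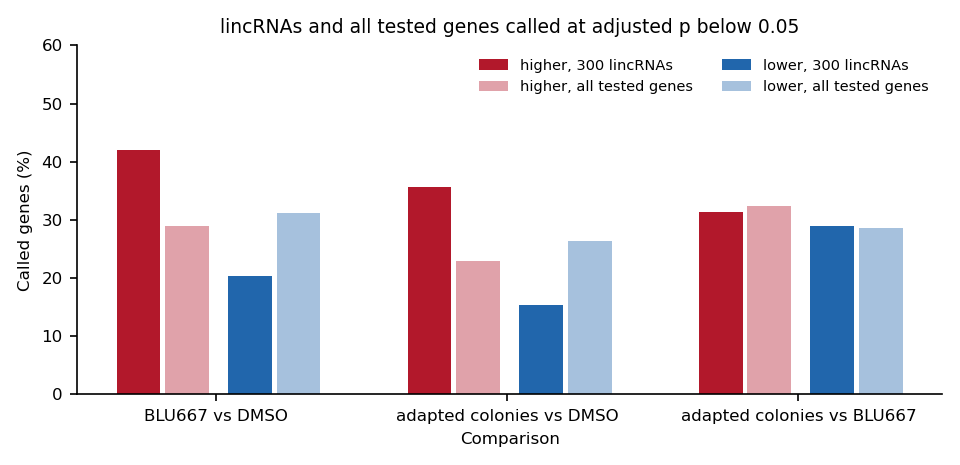
Percent of the 300 lincRNAs (dark) and of all 13927 tested genes (pale) that were higher (red) or lower (blue) at an adjusted p below 0.05, on a linear axis from 0. lincRNAs were higher in 126 and 107 cases in the comparisons with DMSO, and both directions lie near the background between adapted colonies and BLU667.

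AC108062.1, LINC01320, AC073218.1, AL161752.1, LINC02302, AC005736.1 and AC079466.1 rose at 24 h and had at most 4.44 FPKM in DMSO cells. AC108062.1 (chromosome 4, 128292751 to 128519394, plus strand), 3922 bases from PGRMC2, had 13.1 and 16.5 FPKM in BR8, 11.8 and 9.61 in BR10, 11.9 and 12 in BR16 and 22.9 and 23.6 in BLU667-treated cells, against 2 and 2.47 in DMSO cells. All 8 libraries with BLU667 stood at least 9.61 FPKM high, clear of the DMSO pair (2.91 ± 0.13, adjusted p = 6.86e-07 for BLU667 against DMSO). LINC01320 (chromosome 2, 33706886 to 34738231, plus strand) had 2.15 and 1.77 FPKM in BR8, 1.63 and 1.81 in BR10, 1.32 and 1.34 in BR16 and 8.69 and 9.98 in BLU667-treated cells, against 0.799 and 0.656 in DMSO cells, highest in the 24 h pair and only slightly above DMSO in the colonies (2.58 ± 0.11, adjusted p = 5.05e-07). AC073218.1 lies inside LINC01320 on the other strand and shares exon sequence with it. It had 40.5 and 28.3 FPKM in BLU667-treated cells, against 0.631 and 4.44 in DMSO cells, with a DMSO pair that spread over most of the colony values (3.55 ± 0.51, adjusted p = 0.000435), and its reads cannot be separated from those of LINC01320 in these non-directional libraries. AL161752.1 (chromosome 14, 44392531 to 44393716, minus strand) had no read in DMSO and 57 reads in BLU667-treated cells, at least 18.7-fold higher if the DMSO pair together is set at the limit of 3 reads that a count of 0 allows. LINC02302, on the same chromosome and strand, had 0.0979 and 0.123 FPKM in BR8, 0.788 and 0.44 in BR10, 0.445 and 0.136 in BR16 and 4.75 and 6.04 in BLU667-treated cells, against 0.371 and 0.283 in DMSO cells. Only the 24 h pair exceeded 1 FPKM (2.26 ± 0.18, adjusted p = 1.38e-05). LINC02302 and AL161752.1 reached the rule's mean of 1 FPKM only through that pair. Their rises are thus partly built into the choice, and the fold and p-value describe values that the rule itself used. AC005736.1 (chromosome 16) had 15.2 and 11.4 FPKM in BLU667-treated cells, against 2.31 and 1.83 in DMSO cells and rose by 2.21 ± 0.14, adjusted p = 5.13e-06. AC079466.1 (chromosome 19) had 14.3 and 16.9 FPKM in BLU667-treated cells, against 3 and 2.68 in DMSO cells and rose by 2.11 ± 0.14, adjusted p = 6.3e-06.

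TP53TG1 and PURPL, both known as targets of the tumour suppressor p53, were higher at 24 h. TP53TG1 had 1.72 and 3.6 FPKM in BR8, 4.41 and 3.49 in BR10, 3.25 and 2.42 in BR16 and 5.78 and 6.58 in BLU667-treated cells, against 1.58 and 1.85 in DMSO cells. It rose by 1.40 ± 0.23, adjusted p = 0.000972 at 24 h, and 1 BR8 library lay inside the DMSO range. PURPL had 0.992 and 1.55 FPKM in BR8, 2.18 and 1.45 in BR10, 0.373 and 0.513 in BR16 and 3.36 and 2.75 in BLU667-treated cells, against 1.06 and 1.17 in DMSO cells, a rise of 0.93 ± 0.17, adjusted p = 0.00173 at 24 h with BR16 below both DMSO libraries.

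Several lincRNAs of DMSO cells were near or at 0 after 24 h of BLU667. AL713998.1 (chromosome 6, 67887646 to 67889339, minus strand), 746028 bases from the nearest coding gene, had 0.992 and 0.851 FPKM in BR8, 5.05 and 4.94 in BR10, 1.96 and 2.04 in BR16 and 2.02 and 1.25 in BLU667-treated cells, against 34.7 and 32.8 in DMSO cells. No library with BLU667 came above 5.05 FPKM, and the log2 change was -3.74 ± 0.13, adjusted p = 2.02e-07 at 24 h and -3.42 ± 0.11, adjusted p = 2.04e-07 in the colonies. BX640514.2 (chromosome 20, 62596732 to 62603115, minus strand) had 1 and 0.665 FPKM in BR8, 4.85 and 6.49 in BR10, 0.887 and 2.16 in BR16 and 0 and 0.184 in BLU667-treated cells, against 20.5 and 17.5 in DMSO cells. Its 2 reads in BLU667-treated cells against 411 in DMSO cells make it 209-fold lower, with a 95% exact counting interval of 57.6 to 1733, and BR10 had more of it than BR8 and BR16. AC004585.1 and AC002401.4 on chromosome 17 and AP005233.2 on chromosome 11 had no read after 24 h of BLU667. With 130, 105 and 37 reads in DMSO cells they were at least 44.1-fold, 35.6-fold and 12.6-fold lower, against 3 reads over the BLU667 pair. In the colonies AC002401.4 had 2.13 to 3.91 FPKM, against 5.64 and 4.77 in DMSO cells. FLJ42351 (chromosome 2) had 1.74 and 1.44 FPKM in BR8, 1.81 and 1.81 in BR10, 1.19 and 1.34 in BR16 and 0.59 and 0.541 in BLU667-treated cells, against 4.56 and 5.85 in DMSO cells and was below DMSO in all 8 libraries with BLU667 (-1.98 ± 0.12, adjusted p = 3.95e-06 at 24 h). BLACAT1, named for its presence in bladder cancer, had 0.361 and 0.231 FPKM in BLU667-treated cells, against 2.85 and 3.02 in DMSO cells and fell by 1.60 ± 0.14, adjusted p = 2.32e-05. It overlaps LEMD1.

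LINC00973 also fell. The lincRNA (chromosome 3, 98981058 to 98983096, plus strand) had 17.9 and 23 FPKM in BR8, 16.7 and 16.3 in BR10, 9.22 and 10.8 in BR16 and 8.15 and 5.14 in BLU667-treated cells, against 22.2 and 21.8 in DMSO cells. BLU667 for 24 h gave the lowest pair, BR16 came next, and BR8 overlapped the DMSO pair (-1.62 ± 0.19, adjusted p = 0.000125 at 24 h). Its promoter window (chr3:98980805-98981104, plus strand) is shown because it is 1 of 3 among the 51 windows that hold TGACTCA or its reverse complement TGAGTCA, the letters bound by AP-1, a pair of transcription factors made through ERK signalling. The letters, in capitals, begin 49 bases before the start, and 4.95% of all RefSeq windows hold them on either strand. The match is a description and no evidence of binding.
LINC00973: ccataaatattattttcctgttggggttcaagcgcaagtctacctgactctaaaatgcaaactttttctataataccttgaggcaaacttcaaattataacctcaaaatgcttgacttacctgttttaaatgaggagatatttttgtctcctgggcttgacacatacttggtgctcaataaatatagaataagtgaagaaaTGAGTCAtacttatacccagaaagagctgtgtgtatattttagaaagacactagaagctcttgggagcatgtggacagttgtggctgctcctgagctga

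The best-known abundant lincRNAs did not move as a group. NORAD, which binds Pumilio proteins, had 55.8 and 58.5 FPKM in BR8, 58.7 and 57.7 in BR10, 46.9 and 46.1 in BR16 and 77.7 and 81.9 in BLU667-treated cells, against 63.7 and 70.3 in DMSO cells. BLU667 at 24 h stood above DMSO and all colonies below it, with log2 changes of 0.25 ± 0.08, adjusted p = 0.0222 for BLU667 and -0.31 ± 0.06, adjusted p = 0.00398 for the colonies. The 24 h rise of NORAD was lost without DMSO replicate 1 (0.18, adjusted p = 0.0569), without BLU667 replicate 2 or when only those 2 groups were fitted (0.25, adjusted p = 0.138). The colony call was lost with colony means as replicates (adjusted p = 0.257). MALAT1, a component of nuclear speckles, had 35.9 and 39.2 FPKM in BR8, 34 and 24.1 in BR10, 42.7 and 57.3 in BR16 and 60 and 53.2 in BLU667-treated cells, against 20.9 and 16.5 in DMSO cells. All libraries with BLU667 exceeded both DMSO libraries, and the rise was 1.55 ± 0.19, adjusted p = 0.000204 at 24 h and 0.98 ± 0.16, adjusted p = 0.00131 in the colonies. NEAT1, the scaffold of paraspeckles and neighbour of MALAT1, had 19.4 and 22.8 FPKM in BR8, 13.5 and 10.1 in BR10, 13.2 and 13.8 in BR16 and 16.3 and 14.6 in BLU667-treated cells, against 15.9 and 9.59 in DMSO cells, with overlapping groups and no call at 24 h (0.30 ± 0.21, adjusted p = 0.262). LINC00958 rose by 0.41 ± 0.08, adjusted p = 0.00314 at 24 h, with 38.9 and 41 FPKM in BLU667-treated cells, against 31.6 and 28 in DMSO cells. AC003092.1 (chromosome 7) had 13.6 and 13.5 FPKM in BR8, 22.7 and 24.4 in BR10, 5.44 and 6.09 in BR16 and 11.6 and 7.36 in BLU667-treated cells, against 20.7 and 28.8 in DMSO cells, so that BR10 stayed within the DMSO range while BR16 fell lowest.

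In the adapted colonies, taken as the mean of 3 group means, 107 lincRNAs were higher than in DMSO cells and 46 were lower, where 22.9% of all tested genes were higher and 26.3% lower. The median was 0.18, against -0.03 over all genes. Past an absolute log2 change of 1 there were 47 higher and 10 lower (4.83% and 4.09% of all genes). On the 282 lincRNAs chosen by the mean of the colonies' and the DMSO means, 89 were higher and 50 lower. By colony, BR8 had 113 higher and 46 lower (24% and 27.3% of all genes), BR10 87 and 34 (19.2% and 21.5%) and BR16 92 and 50 (21.9% and 23.6%). In 60 lincRNAs all colonies were called higher than DMSO, in 17 all were lower, and 98 were called in none, which is 20%, 5.67% and 32.7% of the lincRNAs. The 3 comparisons share the DMSO libraries, and over all tested genes the shares were 10.4%, 9.45% and 28.2%. With the colony means as 3 replicates, 46 were higher and 11 lower. The share of all tested genes called in that fit was not counted, so these counts have no background.

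A pair of neighbours on chromosome 10, AC245041.1 (47970043 to 47973496, minus strand) and AC245041.2 (47908064 to 47991850, minus strand), led the rises. AC245041.1 lies within the bounds of AC245041.2 on the same strand, the exons being separate. AC245041.1 had 106 and 106 FPKM in BR8, 29.1 and 29.4 in BR10, 47.8 and 44.3 in BR16 and 4.4 and 8.15 in BLU667-treated cells, against 1.11 and 1.91 in DMSO cells. The 6 colony libraries stood above the 24 h pair, which stood above DMSO, and the colonies exceeded DMSO by 4.43 ± 0.19, adjusted p = 8.8e-07. AC245041.2 had 18 and 22.4 FPKM in BR8, 4.87 and 6.18 in BR10, 14 and 13.1 in BR16 and 1.11 and 2.08 in BLU667-treated cells, against 0.372 and 0.154 in DMSO cells and showed the same order of groups (3.32 ± 0.16, adjusted p = 1.57e-06). Both were highest in BR8 and lowest, among the colonies, in BR10. AC245041.2 reached the rule's mean of 1 FPKM only through the colonies, so its change and p-value describe values that the rule itself used.

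CERNA2, C6orf99, AL161431.1 and LINC01111 rose in every colony. CERNA2 (chromosome 10, 84167228 to 84172093, minus strand) had 15.9 and 14.3 FPKM in BR8, 0.891 and 1.11 in BR10, 10.7 and 10.7 in BR16 and 2 and 3.07 in BLU667-treated cells, against 0 and 0.0337 in DMSO cells. It had 1 read over both DMSO libraries and 1735 over the 6 colony libraries, a ratio of 556 with a counting interval of 99.6 to 21964. By colony the ratios to DMSO were 976.1 in BR8, 65.45 in BR10 and 690.5 in BR16. With the 3 colony means as replicates, limma no longer called CERNA2 against DMSO (adjusted p = 0.0663). CERNA2 owes its mean of at least 1 FPKM to the colonies, so its ratios describe values that the rule itself used. C6orf99 (chromosome 6, 158869939 to 158919105, plus strand) had 27.7 and 24 FPKM in BR8, 5.86 and 6.17 in BR10, 18 and 18.6 in BR16 and 1.23 and 2.28 in BLU667-treated cells, against 1.47 and 1.06 in DMSO cells. The 24 h pair overlapped DMSO (0.26 ± 0.17, adjusted p = 0.222), and the colonies were higher than DMSO by 2.77 ± 0.14, adjusted p = 2.32e-06. AL161431.1 (chromosome 13, 109269634 to 109278512, plus strand) had 20.9 and 21 FPKM in BR8, 14 and 13.6 in BR10, 14.7 and 13.9 in BR16 and 0.614 and 0.498 in BLU667-treated cells, against 1.93 and 2.19 in DMSO cells. Opposite calls mark it, a log2 change of -0.97 ± 0.08, adjusted p = 1.8e-05 at 24 h and of 2.48 ± 0.07, adjusted p = 1.11e-07 in the colonies. LINC01111 (chromosome 8), the most abundant of the 300, had 116 and 117 FPKM in BR8, 64.7 and 59.3 in BR10, 95.7 and 98.8 in BR16 and 49 and 52.3 in BLU667-treated cells, against 11.1 and 16.6 in DMSO cells. It was higher than DMSO at 24 h (1.82 ± 0.16, adjusted p = 2.22e-05) and in the colonies (2.62 ± 0.13, adjusted p = 1.64e-06). AC087612.1 (chromosome 15) had 15.8 and 13.6 FPKM in BR8, 12.8 and 10.4 in BR10, 15.1 and 16.2 in BR16 and 8.01 and 8.92 in BLU667-treated cells, against 2.15 and 1.73 in DMSO cells, with every colony library above the 24 h pair and that pair above DMSO. HIF1A-AS2, a transcript antisense to HIF1A, the oxygen-sensing transcription factor, had 12.5 and 12.8 FPKM in BR8, 9.52 and 8.19 in BR10, 13.7 and 19.5 in BR16 and 5.76 and 3.67 in BLU667-treated cells, against 1.92 and 1.66 in DMSO cells and rose by 2.25 ± 0.16, adjusted p = 1.41e-05, while HIF1A itself changed by 0.66, adjusted p = 0.00235.

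AP000547.3 and AL450270.1 fell below DMSO in the colonies. AP000547.3 (chromosome 22), which shares exon sequence with TPTEP1, had 1.54 and 1.04 FPKM in BR8, 0.443 and 0.488 in BR10, 0 and 0 in BR16 and 1.98 and 1.5 in BLU667-treated cells, against 2.21 and 3.56 in DMSO cells. BR16 had no read where DMSO had 299, at least 98.6-fold lower against 3 reads over the BR16 pair. The shift of the colonies from DMSO was -1.36 ± 0.15, adjusted p = 0.000191, while the 24 h change missed the threshold (-0.49 ± 0.19, adjusted p = 0.0532). AL450270.1 (chromosome 6, 8664 bases from EYA4) had 0.291 and 0.911 FPKM in BR8, 0 and 0.338 in BR10, 0.157 and 0 in BR16 and 4.79 and 4.56 in BLU667-treated cells, against 1.38 and 1.94 in DMSO cells, highest at 24 h and lowest in the colonies. EYA4, a transcriptional coactivator, did likewise, at 1.35, adjusted p = 4.79e-06 for BLU667 and -1.19, adjusted p = 5.29e-06 for the colonies, each against DMSO. AL450270.1 reached the rule's mean of 1 FPKM only through the 24 h pair, so its high level there is partly built into the choice.

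**Figure D4:**
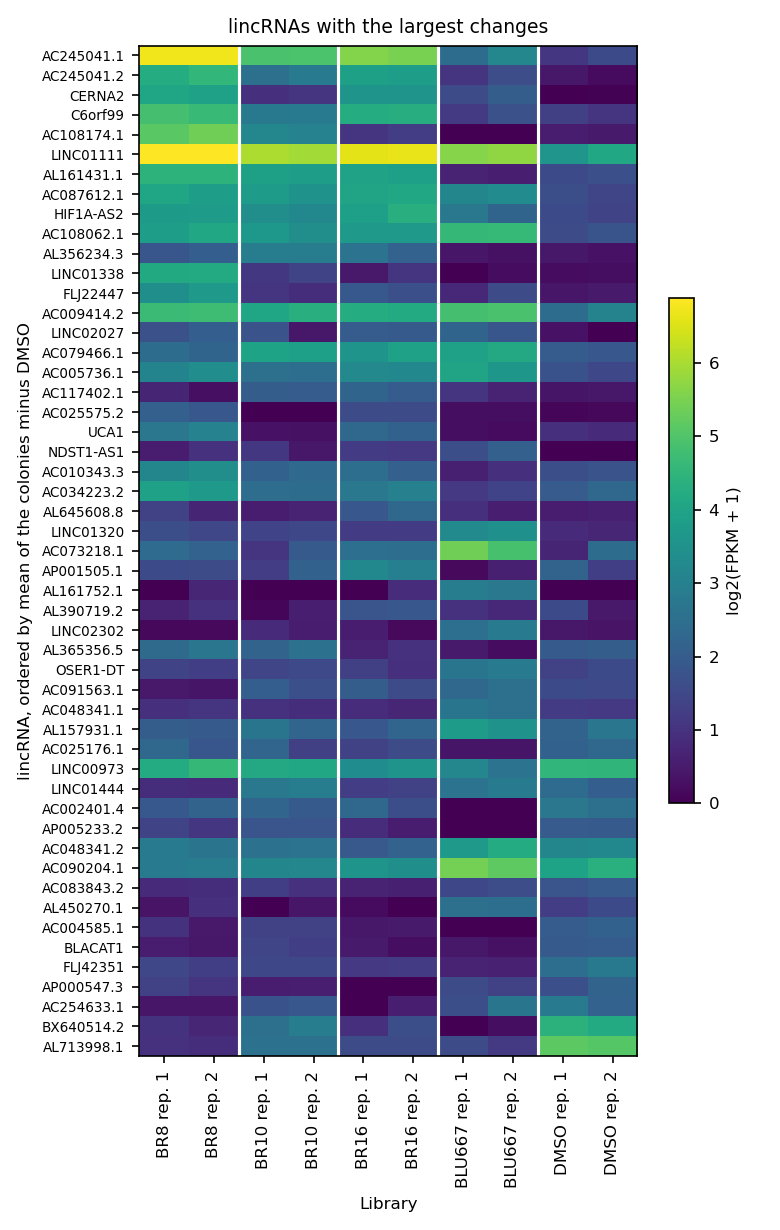
log2(FPKM + 1) of the lincRNAs named for their change in a main comparison or among colonies, by library, ordered by the mean of the colonies minus DMSO. AC245041.1 and LINC01111 are brightest in BR8, and AL713998.1 is bright in DMSO alone.

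Between the adapted colonies and the 24 h treatment, 94 lincRNAs were higher in the colonies and 87 lower, where 32.4% of all genes were higher and 28.7% lower. The median was -0.02, against 0.03 over all genes. When lincRNAs were chosen by the mean of just these groups (312 tested), the split turned to 82 higher and 107 lower. Past an absolute log2 change of 1, 45 were higher and 21 lower (7.71% and 5.58% of all genes). Colony means as replicates gave 47 higher and 50 lower, with no share of all tested genes counted for that fit. Joining the comparisons, which share libraries, 39 lincRNAs were higher than DMSO at 24 h, lower in the colonies than at 24 h and not called between colonies and DMSO. The mirror case, lower at 24 h and higher in the colonies than at 24 h with no call against DMSO, held 22. Another 9 were higher than DMSO at 24 h and lower than DMSO in the colonies, and 12 were lower at 24 h and higher in the colonies. These are 13%, 7.33%, 3% and 4% of the lincRNAs, and the same patterns held 11.2%, 10.1%, 2.41% and 1.9% of all tested genes. AC090204.1 on chromosome 8 is among the 9, with 6.25 and 6.52 FPKM in BR8, 7.93 and 8.12 in BR10, 10.7 and 9.8 in BR16 and 42.6 and 35.4 in BLU667-treated cells, against 15 and 19.8 in DMSO cells. The 24 h pair was highest and every colony library lay below DMSO (-2.13 ± 0.11, adjusted p = 1.6e-06 for colonies against BLU667).

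Higher in the colonies than at 24 h were AC010343.3, AC034223.1 and AC034223.2 on chromosome 5, 133915 to 219598 bases from NPR3, a natriuretic peptide receptor gene. AC034223.1, on the other strand, and AC034223.2 both lie within the bounds of AC010343.3, the exons being separate. The 3 are thus not separate loci. AC034223.2 had 14.3 and 11.9 FPKM in BR8, 4.51 and 4.36 in BR10, 5.79 and 7.03 in BR16 and 1.2 and 1.62 in BLU667-treated cells, against 2.92 and 4.02 in DMSO cells, lowest at 24 h and highest in BR8 (1.78 ± 0.13, adjusted p = 8.36e-06). AC010343.3 had 7.9 and 9.52 FPKM in BR8, 3.41 and 4.1 in BR10, 4.65 and 3.28 in BR16 and 0.522 and 0.94 in BLU667-treated cells, against 2.15 and 2.39 in DMSO cells (1.82 ± 0.14, adjusted p = 1.31e-05), and AC034223.1 was higher in the colonies by 1.03 ± 0.15, adjusted p = 0.000545. NPR3 moved the other way, at -0.80, adjusted p = 0.000479. AL356234.3 (chromosome 6), 166773 bases from TNFAIP3, had 2.6 and 3.17 FPKM in BR8, 6.51 and 6.35 in BR10, 5.1 and 3.45 in BR16 and 0.343 and 0.248 in BLU667-treated cells, against 0.372 and 0.273 in DMSO cells, above 1 FPKM in the colonies alone. AL356234.3 met the rule only through the colonies, so that contrast is partly built into the choice.

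AC048341.1 and AC048341.2 on chromosome 12, near MON2, are among the 9 that were higher than DMSO at 24 h and lower in the colonies, the second lying within the bounds of the first with separate exons. AC048341.1 had 0.916 and 1.05 FPKM in BR8, 0.975 and 0.877 in BR10, 0.843 and 0.681 in BR16 and 5.4 and 4.82 in BLU667-treated cells, against 1.32 and 1.21 in DMSO cells and AC048341.2 had 6.02 and 5.32 FPKM in BR8, 5.04 and 5.12 in BR10, 2.76 and 3.44 in BR16 and 12.1 and 17.8 in BLU667-treated cells, against 7.91 and 8.24 in DMSO cells. In both the 24 h pair was highest and every colony library lay below DMSO (-1.69 ± 0.09, adjusted p = 1.56e-06 and -1.52 ± 0.13, adjusted p = 2.49e-05 for colonies against BLU667). OSER1-DT, which starts 169 bases from OSER1 in the other direction, had 1.67 and 1.44 FPKM in BR8, 1.7 and 1.88 in BR10, 1.46 and 0.902 in BR16 and 5.38 and 6.19 in BLU667-treated cells, against 1.53 and 1.94 in DMSO cells. Only the 24 h pair stood apart, and the colonies against BLU667 gave -1.45 ± 0.12, adjusted p = 1.88e-05. Its promoter window (chr20:44210710-44211009, plus strand) is shown as the window between a divergent pair, with an E-box, CACGTG, in capitals 8 bases after the start. The palindrome CACGTG, which MYC and related factors bind, is in 5 of the 51 windows and in 7.26% of all RefSeq windows. CCGGAAG or CTTCCGG, letters of ETS factors, are in 7 of the 51 and in 10.3% of all.
OSER1-DT: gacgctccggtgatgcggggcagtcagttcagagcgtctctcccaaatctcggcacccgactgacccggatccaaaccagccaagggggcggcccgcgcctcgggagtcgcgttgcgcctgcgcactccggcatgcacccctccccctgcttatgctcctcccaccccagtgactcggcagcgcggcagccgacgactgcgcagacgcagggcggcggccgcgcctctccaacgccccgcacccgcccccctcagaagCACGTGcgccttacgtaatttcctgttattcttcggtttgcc

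Of the 300 lincRNAs, 11 span a miRNA, and 3 of them rose, 6 fell and 2 were not called after 24 h of BLU667. In the colonies against DMSO 2 rose, 3 fell and 6 were not called. Of all tested genes, 29% were higher and 31.2% lower at 24 h, and 22.9% were higher and 26.3% lower in the colonies, so with 11 hosts the counts say little about hosts as a group. The host RNA was measured and the mature miRNA was not. Mature sequences from RefSeq (GRCh38.p14) could be given for 9 hosts. One arm of each miRNA is shown for the hosts that were called, PVT1 apart, with bases 2 to 8, the seed that pairs with target messenger RNAs, in capitals, first those of hosts that rose at 24 h and then those of hosts that fell.
hsa-let-7i-5p: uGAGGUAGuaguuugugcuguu
hsa-miR-193b-3p: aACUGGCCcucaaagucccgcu
hsa-miR-365a-3p: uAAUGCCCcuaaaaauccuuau
hsa-miR-30a-5p: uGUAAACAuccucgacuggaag
hsa-miR-30c-5p: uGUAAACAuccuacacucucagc
hsa-miR-210-3p: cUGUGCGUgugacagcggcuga
hsa-miR-155-5p: uUAAUGCUaaucgugauagggguu
hsa-miR-22-3p: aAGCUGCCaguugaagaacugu
hsa-miR-4435: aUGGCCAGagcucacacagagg
The 2 miR-30 members of LINC00472 share the seed GUAAACA. The let-7i seed, GAGGUAG, is also that of let-7a, let-7d and let-7f, which lie within AL158152.2, a lincRNA that was not called (-0.25 ± 0.34, adjusted p = 0.548 at 24 h).

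The let-7i host is AC048341.1, described above. MIR193BHG, host of miR-193b and miR-365a (chromosome 16, 14301389 to 14331067, plus strand), had 1.25 and 1.55 FPKM in BR8, 0.839 and 0.962 in BR10, 1.12 and 0.913 in BR16 and 2.85 and 2.52 in BLU667-treated cells, against 0.633 and 0.606 in DMSO cells. The 24 h pair was highest, all colony libraries lay above DMSO, and the rises were 1.18 ± 0.12, adjusted p = 5.58e-05 at 24 h and 0.37 ± 0.10, adjusted p = 0.0132 in the colonies. MIR193BHG reached the rule's mean of 1 FPKM only through the 24 h pair. Its rise at 24 h is thus partly built into the choice. LINC00472 had 3.5 and 3.4 FPKM in BR8, 7.39 and 6.88 in BR10, 7.92 and 6.74 in BR16 and 9.87 and 8.16 in BLU667-treated cells, against 5.26 and 4.78 in DMSO cells. It rose at 24 h (0.73 ± 0.11, adjusted p = 0.000574), lay above DMSO in BR10 and BR16 and below it in BR8. MIR210HG, host of the hypoxia-induced miR-210, had 2.75 and 2.1 FPKM in BR8, 2.4 and 2.68 in BR10, 3.13 and 3.16 in BR16 and 2.06 and 2.65 in BLU667-treated cells, against 6.13 and 5.01 in DMSO cells. Every library with BLU667 was below DMSO, with log2 changes of -0.97 ± 0.14, adjusted p = 0.000382 at 24 h and -0.83 ± 0.11, adjusted p = 0.000451 in the colonies. MIR155HG, host of miR-155, had 1.6 and 1.85 FPKM in BR8, 2.17 and 1.46 in BR10, 1 and 1.73 in BR16 and 1.21 and 0.791 in BLU667-treated cells, against 2.73 and 4.11 in DMSO cells and fell by 1.13 ± 0.22, adjusted p = 0.00213 at 24 h. MIR22HG had 9.68 and 10 FPKM in BR8, 7.21 and 7.56 in BR10, 10.9 and 12.2 in BR16 and 5.54 and 5.86 in BLU667-treated cells, against 6.56 and 7.14 in DMSO cells, slightly lower at 24 h (-0.23 ± 0.08, adjusted p = 0.0423) and higher in the colonies (0.41 ± 0.07, adjusted p = 0.00138), where BR8, BR10 and BR16 all lay above DMSO. MIR4435-2HG and CYTOR are known as near-identical copies on chromosome 2, a likeness not searched here. Reads that match both could be lost from both or misplaced between them, so both values are uncertain. MIR4435-2HG also shares exon sequence with AC017002.6 and BCL2L11. MIR4435-2HG had 3.91 and 3.83 FPKM in BR8, 5.02 and 4.97 in BR10, 3.8 and 3.65 in BR16 and 1.21 and 1.24 in BLU667-treated cells, against 4.57 and 3.63 in DMSO cells, low at 24 h alone (-1.19 ± 0.10, adjusted p = 1.87e-05). CYTOR had 1.54 and 1.36 FPKM in BLU667-treated cells, against 2.22 and 2.22 in DMSO cells (-0.39 ± 0.09, adjusted p = 0.00561). PVT1, a neighbour of the MYC oncogene on chromosome 8, fell by 0.40 ± 0.13, adjusted p = 0.0228 at 24 h and MYC changed by -1.02, adjusted p = 0.000276, each against DMSO.

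Among BR8, BR10 and BR16, 143 of the 300 lincRNAs differed by the moderated F test, where 58.1% of all tested genes did. LINC01338 and AC108174.1, neighbours on the minus strand of chromosome 5 (82850864 to 82859836, minus strand and 82919376 to 82921119, minus strand), were highest in BR8. AC108174.1 had 34.1 and 41.2 FPKM in BR8, 8.14 and 7.34 in BR10, 1.07 and 1.36 in BR16 and 0 and 0 in BLU667-treated cells, against 0.434 and 0.424 in DMSO cells, so that the order BR8, BR10, BR16 held without overlap (F test, adjusted p = 2.76e-06). LINC01338 had 17.3 and 17.4 FPKM in BR8, 1.17 and 1.67 in BR10, 0.39 and 1.07 in BR16 and 0 and 0.182 in BLU667-treated cells, against 0.171 and 0.2 in DMSO cells (adjusted p = 3.34e-05). Their nearest coding gene, TMEM167A, was not called in the colonies against DMSO (-0.21, adjusted p = 0.163). LINC01338 reached the rule's mean of 1 FPKM only through BR8, so its p-value describes values that the rule itself used. FLJ22447, next to HIF1A-AS2 on chromosome 14, had 9.82 and 11.9 FPKM in BR8, 1.05 and 0.881 in BR10, 2.72 and 2.23 in BR16 and 0.728 and 1.97 in BLU667-treated cells, against 0.346 and 0.405 in DMSO cells, again highest in BR8.

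CERNA2, UCA1 and AC025575.2 were lowest, among the colonies, in BR10. UCA1 and AC025575.2 reached the rule's mean of 1 FPKM only through BR8 and BR16. Their folds and p-values thus describe values that the rule itself used. CERNA2 was 0.89 and 1.11 FPKM in BR10, against 10.7 to 15.9 in BR8 and BR16 (adjusted p = 1.74e-05). UCA1, first described in urothelial carcinoma, had 5.69 and 7.36 FPKM in BR8, 0.253 and 0.234 in BR10, 3.91 and 3.41 in BR16 and 0.192 and 0.152 in BLU667-treated cells, against 0.896 and 0.762 in DMSO cells. BR8 and BR16 rose above DMSO, by 2.03 ± 0.13, adjusted p = 8.16e-06 and 1.35 ± 0.13, adjusted p = 8.14e-05, and BR10 lay below it (-0.56 ± 0.13, adjusted p = 0.0101). AC025575.2, 6838 bases from TSPAN8, had 3.32 and 2.63 FPKM in BR8, 0 and 0 in BR10, 1.96 and 1.99 in BR16 and 0.201 and 0.204 in BLU667-treated cells, against 0.0954 and 0.112 in DMSO cells, with no read in BR10 and 58 in BR8, at least 21.8-fold higher in BR8 against 3 reads over the BR10 pair. LINC01444 (chromosome 18) ran the other way, with 0.852 and 0.8 FPKM in BR8, 5.7 and 6.43 in BR10, 1.38 and 1.52 in BR16 and 5.19 and 6.25 in BLU667-treated cells, against 4.28 and 3.12 in DMSO cells. BR10 kept the level of the 24 h pair while BR8 and BR16 lay below DMSO (adjusted p = 8.27e-05). AC079466.1 had 4.45 and 3.63 FPKM in BR8, against 10.9 to 14.9 FPKM in BR10 and BR16. AP001505.1 (chromosome 21) was highest in BR16, with 1.93 and 2.01 FPKM in BR8, 1.4 and 3.38 in BR10, 8.2 and 6.87 in BR16 and 0.128 and 0.52 in BLU667-treated cells, against 3.53 and 1.43 in DMSO cells (adjusted p = 0.01).

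Close coding neighbours gave a second view. A coding gene started within 1000 bases in the opposite direction for 59 lincRNAs, and 58 of these partners were tested. For BLU667 against DMSO both partners were called in 23 pairs, in the same direction in 18 (11 both higher and 7 both lower) and in opposite directions in 5, and the changes of the 58 pairs had a Spearman correlation of 0.56. For the colonies against DMSO 16 pairs were called in both, 13 in the same direction. Pairs share a promoter region and, without strand, may share reads, so they are no independent points and the correlation is a description. In these comparisons 29% and 31.2% of all tested genes were higher and lower at 24 h, so many pairs are called in both partners whatever their position, and whether the counts exceed those of other gene pairs was not tested. SNHG18 starts 125 bases from SEMA5A, a semaphorin gene, which rose by 3.73, adjusted p = 1.01e-07 at 24 h, and FLJ42351 starts 167 bases from the phosphate transporter gene SLC20A1, which fell by 3.15, adjusted p = 5.13e-08. AC009414.2 starts 812 bases from CRIM1 and had 24.9 and 25.8 FPKM in BR8, 15.9 and 19.1 in BR10, 18 and 17.4 in BR16 and 27.6 and 28.8 in BLU667-treated cells, against 4.42 and 7.43 in DMSO cells. It rose by 2.11 ± 0.18, adjusted p = 2.45e-05 and CRIM1 by 1.45, adjusted p = 1.65e-06. In the opposite group, AC068870.2 rose by 0.39 ± 0.13, adjusted p = 0.0259 and its partner TLNRD1 changed by -1.18, adjusted p = 0.000104.

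**Figure D5:**
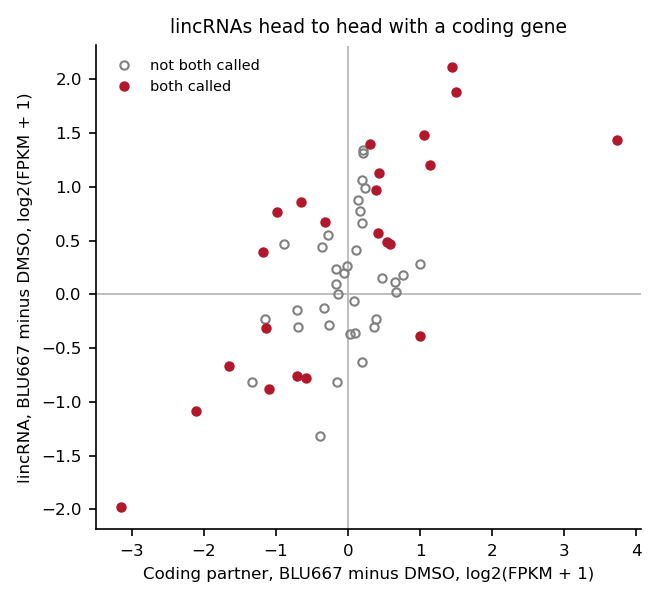
Change of each lincRNA (vertical) and of the coding gene that starts within 1000 bases in the opposite direction (horizontal) between BLU667 and DMSO, both on the log2(FPKM + 1) scale, for 58 pairs. Filled points are the 23 pairs called in both partners, 18 of which share a direction.

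Some lincRNAs without a shared promoter also moved with their nearest coding gene. SLCO4A1, an organic anion transporter gene 39330 bases from BX640514.2, changed by -5.20, adjusted p = 1.61e-07 at 24 h. AP005233.2 is 3737 bases from MYEOV, which changed by -1.87, adjusted p = 5.23e-05, and AC005736.1 is 2801 bases from the adenylate cyclase gene ADCY9, which changed by 1.49, adjusted p = 5.36e-06. Others moved apart: AC002401.4 had no read at 24 h while PDK2, 90 bases away, changed by 0.56, adjusted p = 0.00271, and MIR4435-2HG fell while the cell-death gene BCL2L11, which it overlaps, rose (1.64, adjusted p = 2.58e-06). Over all 238 lincRNAs with a tested nearest gene, both were called in 111 for BLU667 against DMSO. Of these, 80 had the same direction, again with no comparison against other gene pairs. The 238 include pairs that start within 1000 bases of each other, and some lincRNAs have the same nearest gene.

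Several noncoding RNAs known from other cancers were listed at or near 0. MEG3, H19, HOTTIP and FENDRR were listed at 0 FPKM in all 10 libraries, as was PTCSC3, a papillary thyroid carcinoma susceptibility candidate, and HOTAIR reached 0.02 FPKM at most. CRNDE had 6.31 and 6.14 FPKM in BLU667-treated cells, against 4.48 and 4.86 in DMSO cells and rose by 0.35 ± 0.09, adjusted p = 0.00731, and LINC00467 was not called (-0.02 ± 0.13, adjusted p = 0.913).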

How the data were processed

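RNA from 10 libraries of 5 groups was analysed from the table the authors deposited, which gives FPKM per gene; per the submitters' processing notes, CASAVA, STAR 2.5, HTSeq 0.6.1, DESeq2 and GRCh38 were used, and per the labels' protocols globin RNA was depleted and libraries were non-directional. The product of deposited FPKM and transcript length fell on whole multiples of 1 read (tolerance 0.05), so depth was known. These reads served for depth, limits and an alternative fit, and intervals cover counting error only. Deposited values were not scaled again.

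The main test was limma 3.58.1 (R 4.3.3) with a variance trend on log2(FPKM + 1), in 1 fit of 5 groups with 2 libraries each, on 13927 genes with at least 1 FPKM in at least 2 libraries. All p-values are two-sided and adjusted by the Benjamini-Hochberg method over these genes, and a gene was called at an adjusted p below 0.05. A change on this scale understates that of low genes. The colonies' mean weights BR8, BR10 and BR16 equally, and its standard error covers the spread between libraries, not between colonies.

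Named were lincRNAs that hold a snoRNA, the 10 highest by mean, the 10 largest called rises and falls per main comparison, the 3 largest differences per colony, those nearest the limit and a list of known noncoding RNAs. AC034223.1, AC068870.2, AL158152.2, LINC00472 and MIR193BHG fall outside that rule and were chosen after their values were seen. Members and lists were chosen with earlier results of these data known. The fit was tested on simulated data: 30 of 100 genes changed 2-fold and 77 of 100 changed 4-fold were recovered for BLU667 against DMSO, with 8 false calls. The simulation changed few genes at a set spread, so its rates do not measure recovery in these data. Promoter and miRNA sequences came from RefSeq (GRCh38.p14). Alternatives covered the pseudocount, filter, scaling, variance trend, replicate block, groups fitted, GC trend, recovered reads, colony means and each library left out. Scaling by the median of ratios between libraries gave a factor of 1 throughout, so that alternative only repeated the main fit. No column of the table was without a sample (0).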

Additional observations from a re-analysis of the deposited data

Results flagged for a closer look

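In 7 lincRNAs at least 1 colony was called higher than DMSO and at least 1 lower, and the F test found the colonies to differ. By that F test 58.1% of all tested genes differed. The share of all tested genes with such opposite calls was not counted, so the 7 are no trait of lincRNAs as a group. Changes are from DMSO on the log2(FPKM + 1) scale, in the order BR8, BR10 and BR16, with the adjusted p of limma's F test among colonies. UCA1, which met the rule only through BR8 and BR16, changed by 2.03 in BR8, -0.556 in BR10 and 1.35 in BR16 (adjusted p = 2.5e-05). LINC01444 changed by -1.35, 0.597 and -0.93 (adjusted p = 8.3e-05). LINC00472, the host of miR-30a and miR-30c, changed by -0.435, 0.434 and 0.467 (adjusted p = 0.000614). AL365356.5 changed by 0.548, 0.388 and -1.15 (adjusted p = 0.000384). AC068870.2 changed by 0.4, 0.0699 and -0.49 (adjusted p = 0.00197). AL135925.1 changed by -0.318, -0.374 and 0.474 (adjusted p = 0.00125), and AC245060.2 by -0.636, 0.0515 and 0.526 (adjusted p = 0.00165). A mean over the 3 colonies hides these opposite directions.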

How the results depend on the processing

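With 2 libraries a group, precision is limited, and low lincRNAs rest on few reads. Of 96 results for named lincRNAs, 71 kept their direction and call under every alternative tried and 0 reversed. The 96 cover the snoRNA holders, the 10 highest by mean and the largest called rises and falls, each in a main comparison. Differences among colonies and known noncoding RNAs chosen by name alone were not among them. Many were chosen as the largest called changes, so part of this stability follows from the choice. Counts are given as higher and lower for BLU667 against DMSO, colonies against DMSO and colonies against BLU667. An absolute log2 change of at least 1 left 56 and 28, 47 and 10, and 45 and 21. The 3 colony means as replicates gave 46 and 11 against DMSO and 47 and 50 against BLU667, with fewer samples in the fit. How many of all tested genes that fit called was not counted. Selecting the lincRNAs with a mean of at least 1 FPKM in all 5 groups, an alternative chosen after seeing the data, left 64 and 23, 41 and 20, and 34 and 46 of 141. For differences among colonies (143), no filter gave 92, with p-values adjusted over more genes. Leaving out BR16 gave 87, in a test of BR8 against BR10 alone. The cause of either drop was not tested. Leaving out 1 library at a time gave 104 to 127 and 50 to 62, 96 to 107 and 36 to 47, and 79 to 94 and 73 to 92, with 100 to 153 differing among colonies. Replicate numbers did not pair the samples, with correlations of -0.163 to 0.109 between same-numbered libraries, and a replicate block gave 127 and 62, 105 and 44, and 92 and 88, with 136 among colonies. Other alternatives stayed within 1.5 times these counts.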

Other observations

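Some lincRNAs absent or nearly so from DMSO cells appeared in every colony. They were chosen after their values were seen. LINC02167, LINC01508 and EGOT owe their mean of at least 1 FPKM to the colonies, so the rule favours their contrast with DMSO. LINC02167 had 312 recovered reads in BR8, 52 in BR10, 81 in BR16 and 4 in BLU667-treated cells, against 0 in DMSO cells, so that BR8 was at least 104-fold higher than DMSO, with the DMSO pair set at 3 reads. LINC01508 had 124 reads in BR8, 81 in BR10 and 117 in BR16, against 0 in DMSO cells, and also 0 in BLU667-treated cells. EGOT, named for its expression in eosinophils, had 330 reads in BR8, 24 in BR10, 82 in BR16 and 9 in BLU667-treated cells, against 2 in DMSO cells. The ratio of BR8 to DMSO for EGOT was 165, with a 95% counting interval of 45.2 to 1365. BR8 held the most reads of LINC02167 and EGOT, whereas LINC01508 was alike in BR8 and BR16. SFTA1P, a pseudogene-derived RNA of the surfactant family, differs in that it was nearly absent at 24 h, with 1 read in BLU667-treated cells, against 26 in DMSO cells, and 213 over the 6 colony libraries. Its mean of at least 1 FPKM rests on the colonies too.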
